A study of Mus musculus with 6 samples.

Results

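Wnt signalling in cultured mouse cartilage cells was described through 10 genes, namely 5 Wnt ligand genes (Wnt4, Wnt5a, Wnt5b, Wnt10b and Wnt11) and 5 genes that beta-catenin is known to induce (Axin2, Nkd1, Nkd2, Lef1 and Tcf7). They were chosen by name, with earlier results of these data known. All 10 were found among the 44788 rows of the deposited count table, and all 10 were among the 15362 genes with enough counts to be tested. The cells were chondrocytes of the femoral epiphysis, the cartilage at the end of the thigh bone, of C57BL/6 mice labelled postnatal day 1, grown with 10% FBS and sequenced on an Ion Proton instrument. The growth protocol and design text call the cells P2, without saying whether this is an age or a passage. One group received 10 ng/ml TGF-alpha, which activates the epidermal growth factor receptor (EGFR), with 10 µM of the EGFR kinase inhibitor gefitinib for 48 h after 30 min of gefitinib alone. Another group received 10 ng/ml TGF-alpha for 48 h, and the control group received vehicle for 48 h. The treatment protocol gives 0.1% DMSO to all groups, whereas the design text names PBS for the control. Each group had 2 libraries, and no library with gefitinib alone was analysed here. For a gene that TGF-alpha changed, an effect of gefitinib itself therefore cannot be told apart from a loss of that change. For other genes, the effect of gefitinib without TGF-alpha was not measured. Whether replicates came from different cultures or animals is not stated, so p-values measure only the spread between these libraries, which may be technical.

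Wnt proteins are secreted lipid-modified signals that bind Frizzled receptors together with LRP5 or LRP6, or with Ror receptors. In the canonical branch the destruction complex, built on Axin and APC, is inhibited, beta-catenin accumulates and joins the DNA-binding factors of the TCF/LEF family, and genes such as Axin2 and Nkd1 are switched on and in turn restrain the pathway. Wnt5a, Wnt5b and Wnt11 are best known for beta-catenin-independent signalling, and in the growth plate Wnt5a and Wnt5b control the passage of chondrocytes between zones, while strong canonical signalling is known to work against the chondrocyte state.

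The main result among the 10 genes was a fall of Nkd1 with TGF-alpha. Nkd1, which encodes a feedback inhibitor that binds Dishevelled, averaged 9.71 ± 1.39 CPM with TGF-alpha and 32.7 ± 1.71 CPM in control (CPM, library-scaled counts with TMM factors, mean ± SD, n = 2 each), a 3.36-fold fall. With gefitinib added it averaged 29.6 ± 0.794 CPM. Lef1 and Wnt5b were lower with TGF-alpha plus gefitinib than with TGF-alpha alone, and Wnt5b was also lower than in control. Both Wnt5b calls were lost when any single library of the groups compared was left out. The calls of Nkd1 and Lef1 held under all 13 alternative analyses. The other 7 members did not pass the test in any comparison. Chondrocyte markers moved in the same groups: 8 of 8 were called lower with TGF-alpha than in control, 8 of 8 higher with TGF-alpha plus gefitinib than with TGF-alpha, and 5 of 8 lower with TGF-alpha plus gefitinib than in control. Of all tested genes 14.0%, 17.0% and 4.26% were called in these directions, in the same order of comparisons. The chondrocyte markers summed to 54720 to 57566 CPM with TGF-alpha plus gefitinib, 32892 to 34000 with TGF-alpha, and 62257 to 66810 in control. Their part in these results was not tested, and in bulk RNA fewer cells of a type and less RNA per cell cannot be told apart.

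Promoter sequences are shown for the 3 genes that passed a test, because Lef1 and Nkd1 are known targets of TCF/LEF, whose short recognition sequence can be looked up, and Wnt5b is set beside them as a ligand. RefSeq start sites (GRCm38.p6) were matched by symbol for 9 of the 10 genes and gave 16 windows of 250 bases upstream of a start. On either strand, the TCF/LEF core, searched as CTTTGAT and as CTTTGAA, and also as CTTTGTT and as CTTTGTA, was found in 3 of the 16 windows, against 14.8% of all 32851 windows of the table. The AP-1 motif TGANTCA was found in 1 of 16 (6.75% of all windows) and the ETS core CCGGAA in 2 of 16 (12.03%), and none of the motifs overlapped another. Capitals mark a match, each line runs 5′ to 3′ on the gene's own strand and ends at the base before the start site, and the counts do not say which start was used. The Nkd1 window lies at chr8:88527383-88527632 on the plus strand, inside the annotated gene, which starts at 88521354. The stretch before that annotated start was not searched. The 2 Wnt5b windows lie at chr6:119449387-119449636 and chr6:119544348-119544597 on the minus strand, and the Lef1 window at chr3:131156044-131156293 on the plus strand.
Nkd1: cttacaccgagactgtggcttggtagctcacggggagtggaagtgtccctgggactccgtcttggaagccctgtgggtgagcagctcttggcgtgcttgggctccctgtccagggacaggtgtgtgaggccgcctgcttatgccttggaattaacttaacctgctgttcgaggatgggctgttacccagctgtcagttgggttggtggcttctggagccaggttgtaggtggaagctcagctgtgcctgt
Wnt5b, inner start: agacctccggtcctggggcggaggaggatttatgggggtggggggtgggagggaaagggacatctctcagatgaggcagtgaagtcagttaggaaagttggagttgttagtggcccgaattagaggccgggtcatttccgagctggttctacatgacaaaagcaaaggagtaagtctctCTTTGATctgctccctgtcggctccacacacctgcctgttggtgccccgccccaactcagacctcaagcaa
Wnt5b, outermost start: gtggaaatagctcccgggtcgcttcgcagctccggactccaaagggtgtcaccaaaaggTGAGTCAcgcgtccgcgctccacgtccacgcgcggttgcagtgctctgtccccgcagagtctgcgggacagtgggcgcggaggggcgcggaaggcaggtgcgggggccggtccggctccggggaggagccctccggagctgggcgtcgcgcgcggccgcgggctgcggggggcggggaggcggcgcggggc
Lef1, innermost start: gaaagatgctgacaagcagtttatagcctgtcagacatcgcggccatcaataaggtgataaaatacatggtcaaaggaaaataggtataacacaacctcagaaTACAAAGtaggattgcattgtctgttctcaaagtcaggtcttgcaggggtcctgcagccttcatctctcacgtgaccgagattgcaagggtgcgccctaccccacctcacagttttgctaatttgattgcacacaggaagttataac
A further Wnt5b window, at chr6:119467212-119467461, held none of the motifs and is not printed. The inner Wnt5b window held CTTTGAT with its first base at position -71 from the start, and the outermost one held the AP-1 sequence TGAGTCA at -191. The innermost Lef1 window held TACAAAG, a TCF/LEF core read on the other strand, at -147. No TCF/LEF core was in the other 3 Lef1 windows or in the single windows of Nkd1, Axin2 and Nkd2. The Nkd1 window lies inside the gene, so a core before the annotated Nkd1 start was not looked for. Wnt11 held ATCAAAG at -51 of its first start, and Wnt11 and Tcf7 each held an ETS core in 1 window. A match describes the sequence and is not evidence of binding.

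Total counts per library were 12317407 to 16096263, and single counts of the 10 genes ran from 10 to 543. Replicates varied beyond counting error (chi-square over its degrees of freedom, 3.03 to 3.83). To set genes beside each other, CPM was divided by the length of all annotated exons (GENCODE M21, GRCm38). On that scale Nkd1 ranked first with TGF-alpha plus gefitinib (6.49 ± 0.174 CPM per kb), after Wnt5a and Wnt5b with TGF-alpha (2.13 ± 0.304) and first in control (7.17 ± 0.375). Wnt5a followed or led, at 4.32 ± 0.116, 4.15 ± 0.129 and 4.49 ± 0.0986 CPM per kb in the same order of groups. In control the order went on with Wnt5b, Wnt10b, Tcf7, Lef1, Wnt11, Wnt4, Axin2 and Nkd2, from 2.94 ± 0.0451 down to 0.219 ± 0.0816 CPM per kb. The libraries of Lef1, Wnt11 and Wnt4 overlapped their neighbours in that order, as did those of Wnt10b with Tcf7, and of Wnt4, Axin2 and Nkd2, in the TGF-alpha group and those of Wnt11 with Lef1 in the group with gefitinib.

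**Figure D1:**
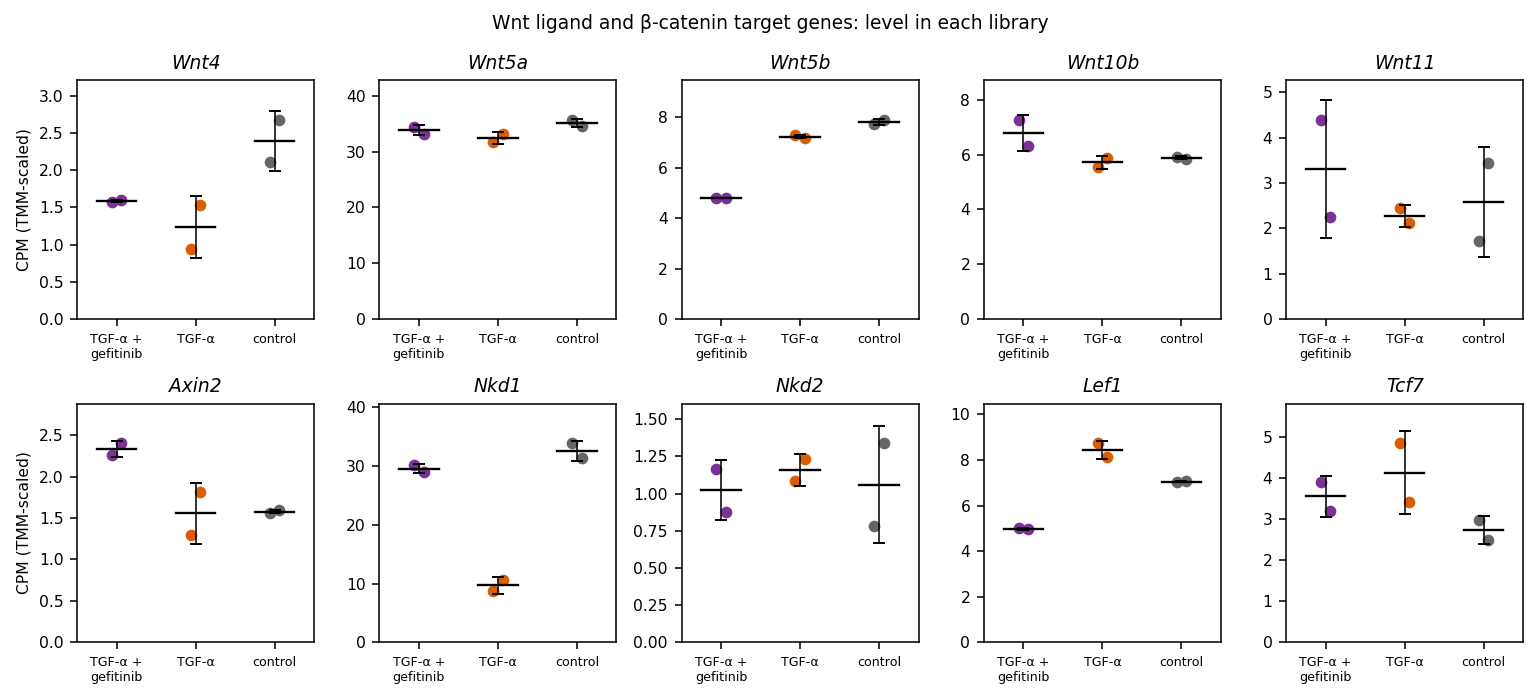
TMM-scaled CPM of the 10 genes in each library, 1 panel a gene with a linear axis from 0; points are libraries, the long bar is the mean and the whisker 1 SD of 2 libraries. Nkd1 lies at 8.73 and 10.7 CPM with TGF-alpha, below all other libraries, and Wnt5b and Lef1 are lowest with TGF-alpha plus gefitinib.

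Among the 10 genes 1 was called (adjusted p under 0.05 over all tested genes) for TGF-alpha against control, where 29.9% of all tested genes were called (15.9% higher, 14.0% lower). For TGF-alpha plus gefitinib against TGF-alpha 3 of 10 were called, against 34.0% of all tested genes (17.0% higher, 16.9% lower). For TGF-alpha plus gefitinib against control 1 of 10 was called, where 9.52% of all tested genes were called (5.27% higher, 4.26% lower). These shares are near or below those of all genes. The libraries of the groups compared did not overlap for 6, 7 and 8 of the 10 genes in the 3 comparisons, and for 64.1%, 65.8% and 52.1% of all tested genes. The first 2 comparisons share the TGF-alpha libraries, the first and last share the control libraries, and the last 2 share those with gefitinib, so they are not independent of each other.

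Wnt5a (chromosome 14, 28504750 to 28527448, plus strand), the ligand with the highest level, was 34.5 and 33.2 CPM with TGF-alpha plus gefitinib, 31.7 and 33.2 with TGF-alpha, and 35.7 and 34.6 in control. The values of all 6 libraries lay close together. The log2 fold change was -0.11 for TGF-alpha over control (95% interval -0.30 to 0.069, adjusted p = 0.36, edgeR quasi-likelihood test), and 0.061 (-0.12 to 0.24, adjusted p = 0.633) for gefitinib added to TGF-alpha. Changes outside these intervals would be larger than the data allow at the 95% level.

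Wnt5b (chromosome 6, 119432531 to 119544347, minus strand), the closest relative of Wnt5a, had 4.8 and 4.8 CPM with TGF-alpha plus gefitinib, 7.28 and 7.20 with TGF-alpha, and 7.73 and 7.90 in control. The gefitinib libraries were the lowest 2 and did not overlap either other group. Wnt5b was 1.51-fold lower with TGF-alpha plus gefitinib than with TGF-alpha (log2 -0.59 ± 0.19 SE, adjusted p = 0.0234) and 1.63-fold lower than in control (log2 -0.70 ± 0.18, adjusted p = 0.0267). TGF-alpha alone did not differ from control beyond the test (log2 -0.11, 95% interval -0.48 to 0.26, adjusted p = 0.692). The Wnt5b calls rest on 60 to 124 counts a library. Both were lost when any 1 of the 4 libraries compared was left out, with adjusted p of 0.0748 to 0.0878 against TGF-alpha (0.0878 without TGF-alpha 1, 0.0748 without TGF-alpha 2, 0.0777 without TGF-alpha plus gefitinib 1, 0.0756 without TGF-alpha plus gefitinib 2) and 0.0872 to 0.126 against control (0.0932 without control 1, 0.126 without control 2, 0.0872 without TGF-alpha plus gefitinib 1, 0.0985 without TGF-alpha plus gefitinib 2), while the fold change hardly moved. DESeq2 gave an adjusted p of 0.146 against TGF-alpha. Whether Wnt5a and Wnt5b differ from each other in their change was not tested.

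Wnt10b (chromosome 15, 98770712 to 98778150, minus strand), a ligand that signals through beta-catenin, had 7.26 and 6.32 CPM with TGF-alpha plus gefitinib, 5.55 and 5.89 with TGF-alpha, and 5.93 and 5.86 in control. The gefitinib libraries were the highest 2, but no comparison passed the test (log2 0.25 against TGF-alpha, 95% interval -0.16 to 0.66, adjusted p = 0.35).

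Wnt4 (chromosome 4, 137277489 to 137299726, plus strand), known in limb development for its expression at forming joints, gave 23 and 20 counts with TGF-alpha plus gefitinib, 13 and 21 with TGF-alpha, and 27 and 42 in control. As CPM these are 1.58 and 1.60, 0.938 and 1.53, and 2.11 and 2.67 in the same order. Both TGF-alpha libraries lay below both control libraries, with a log2 fold change of -0.96 ± 0.37 that had an unadjusted p of 0.0206 and missed the threshold after adjustment (adjusted p = 0.0644). Without a filter on low counts the adjusted p was 0.0419. Over the 12 alternatives that gave a value, Wnt4 was lower with TGF-alpha in every case.

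Wnt11 (chromosome 7, 98835112 to 98855195, plus strand), a non-canonical ligand, had 4.39 and 2.24 CPM with TGF-alpha plus gefitinib, 2.45 and 2.11 with TGF-alpha, and 1.72 and 3.44 in control. The groups overlapped in all 3 comparisons, and the 95% interval of TGF-alpha over control ran from -1.03 to 0.62 on the log2 scale (adjusted p = 0.748). An opposite-strand pseudogene, Gm8398, covers 8.80% of its exon length, and whether counting used strand is not given in the sources used here.

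**Figure D2:**
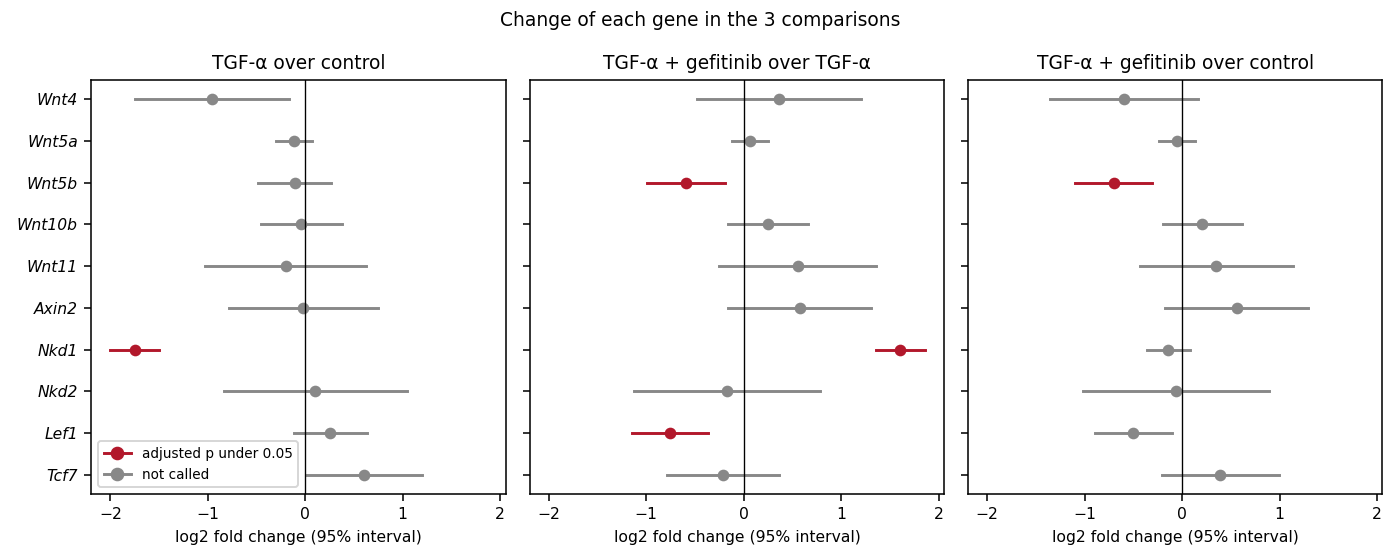
Log2 fold change of each gene with its 95% interval in the 3 comparisons, from the quasi-likelihood fit over all tested genes; red marks an adjusted p under 0.05. Nkd1 lies at -1.75 for TGF-alpha over control and at 1.61 for gefitinib added to TGF-alpha, and most other intervals include 0.

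Of the 19 mouse Wnt ligand genes, 4 (Wnt3, Wnt8a, Wnt8b and Wnt9b) had no count in any library, which allows up to 3 counts over the 6 libraries. A further 7 had 1 to 13 counts over all 6 libraries, and 8 were tested: the 5 members with Wnt9a, Wnt10a and Wnt16. Wnt10a, the nearest relative of Wnt10b, gave 8 and 9 counts with TGF-alpha plus gefitinib, 76 and 84 with TGF-alpha, and 7 and 10 in control. Its level was 0.634 ± 0.121, 5.79 ± 0.443 and 0.592 ± 0.0640 CPM in the same order (n = 2 each). The TGF-alpha libraries stood far above the other 4, with a log2 fold change of 3.26 ± 0.34 over control (9.60-fold, adjusted p = 3.05e-06) and of -3.19 ± 0.34 when gefitinib was added (adjusted p = 3.53e-06). These calls were kept without each library in turn (adjusted p up to 0.000199 and 0.00022).

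Per length, the 19 ligands summed to 11.8 and 10.5 CPM per kb with TGF-alpha plus gefitinib, 12.5 and 13.7 with TGF-alpha, and 11.7 and 11.9 in control. The 5 members made up 82.7% and 84.1% of that sum with TGF-alpha plus gefitinib, 73.9% and 70.0% with TGF-alpha, and 86.8% and 89.1% in control. Wnt10a made up 1.88% and 2.78%, 17.7% and 18.1%, and 1.90% and 2.17% in the same order. No p is given for these sums and shares, since the smallest p of an exact two-sided permutation test at this size is 0.33.

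**Figure D3:**
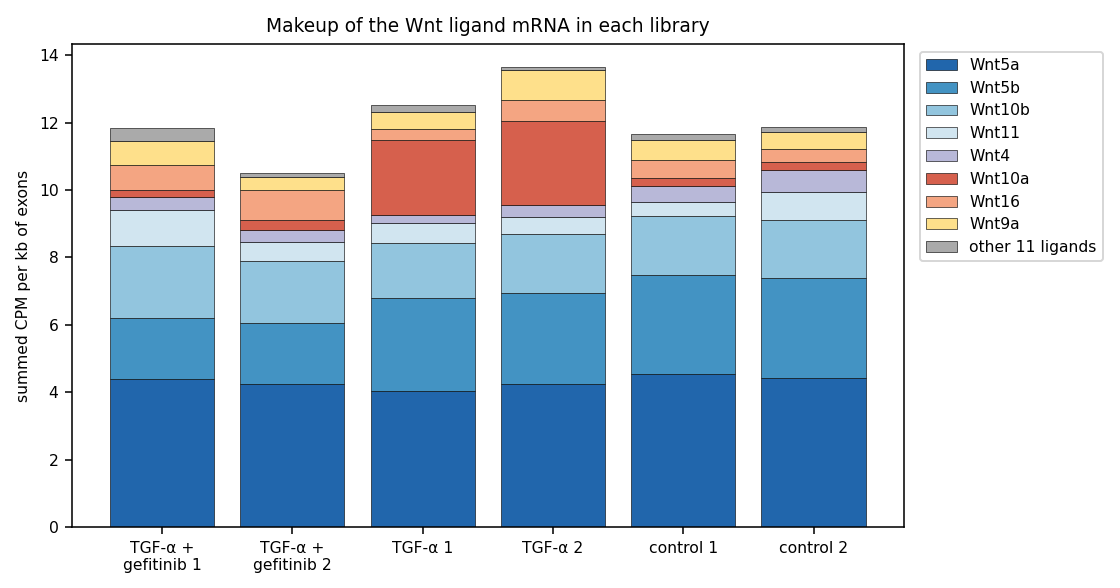
Level of the Wnt ligand genes in each library, stacked as TMM-scaled CPM divided by exon length in kb, with the 11 untested ligands summed in grey. Wnt5a, Wnt5b and Wnt10b make up most of every bar, and Wnt10a (red) is at 2.22 and 2.47 CPM per kb with TGF-alpha against 0.221 and 0.258 in control.

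Of the genes that restrain the pathway from inside the cell, Nkd1 (chromosome 8, 88521354 to 88594884, plus strand) had 30.1 and 29.0 CPM with TGF-alpha plus gefitinib, 8.73 and 10.7 with TGF-alpha, and 33.9 and 31.5 in control. The 2 TGF-alpha libraries were the lowest, and no group overlapped another. Its fall with TGF-alpha was 3.36-fold (log2 -1.75 ± 0.12 SE, 95% interval -2.0 to -1.50, adjusted p = 3.1e-08), a change larger in size than that of 97.5% of tested genes. With gefitinib Nkd1 was 3.05-fold higher than with TGF-alpha alone (log2 1.61 ± 0.12, adjusted p = 7.9e-08). Against control the gefitinib group differed by log2 -0.14 (95% interval -0.36 to 0.081, adjusted p = 0.464). Both calls held under all 13 alternatives. Nkd1 made up 71.0% and 71.7% of the counts of the 5 target genes with TGF-alpha plus gefitinib, 35.4% and 42.2% with TGF-alpha, and 73.3% and 71.6% in control.

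Its paralogue Nkd2 (chromosome 13, 73818534 to 73847631, minus strand) was low, at 17 and 11 counts with TGF-alpha plus gefitinib, 15 and 17 with TGF-alpha, and 10 and 21 in control. The groups overlapped in all 3 comparisons, and the 95% interval of TGF-alpha over control ran from -0.83 to 1.04 on the log2 scale (adjusted p = 0.891). A change of the size seen in Nkd1 lies outside that interval, although the difference between the paralogues was not tested.

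Axin2 (chromosome 11, 108920349 to 108950783, plus strand), a scaffold of the destruction complex and the most widely used reporter of beta-catenin activity, had 2.26 and 2.40 CPM with TGF-alpha plus gefitinib, 1.30 and 1.82 with TGF-alpha, and 1.56 and 1.59 in control. These are 18 to 33 counts a library. Both gefitinib libraries were above the other 4, but neither comparison passed the test (log2 0.58 ± 0.34 against TGF-alpha, adjusted p = 0.219, and 0.56 ± 0.34 against control, adjusted p = 0.358). TGF-alpha over control gave log2 -0.018 with an interval from -0.79 to 0.75, so a moderate change of Axin2 in either direction was not detectable at this depth.

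The nuclear effectors of the list, Lef1 and Tcf7, encode DNA-binding partners of beta-catenin and are themselves induced by it. Lef1 (chromosome 3, 131110471 to 131224356, plus strand) had 5.0 and 4.96 CPM with TGF-alpha plus gefitinib, 8.73 and 8.14 with TGF-alpha, and 7.02 and 7.07 in control. The 3 groups did not overlap, with TGF-alpha highest and gefitinib lowest. Lef1 was 1.69-fold lower with gefitinib than with TGF-alpha alone (log2 -0.76 ± 0.18, 95% interval -1.15 to -0.37, adjusted p = 0.00478). That call held under all 13 alternatives, with an adjusted p of 0.0404 by DESeq2. TGF-alpha over control (log2 0.26 ± 0.17, adjusted p = 0.301) and gefitinib against control (log2 -0.50 ± 0.18, unadjusted p = 0.0169, adjusted p = 0.111) did not pass. An antisense gene, Gm43352, covers 13.8% of the exon length of Lef1 on the opposite strand. As the strand setting is not given, how reads in that stretch were assigned is not known. Antisense genes also cover 4.58% of the exon length of Wnt5a (Gm2670) and 3.8% of that of Axin2 (Gm11670).

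Tcf7 (chromosome 11, 52252371 to 52283014, minus strand) had 3.91 and 3.20 CPM with TGF-alpha plus gefitinib, 4.83 and 3.42 with TGF-alpha, and 2.97 and 2.48 in control. Both treated groups lay above control without overlap, and TGF-alpha 1 was the highest library. TGF-alpha over control gave log2 0.60 ± 0.28 with an unadjusted p of 0.0456 and an adjusted p of 0.119, so the rise was not called.

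The rule for likeness compared each called member with the 11262 other tested genes of at least 5 CPM, by Pearson's correlation of log2 CPM over the 6 libraries, as a description. St3gal5 and Rassf4 were most like Nkd1 (r = 0.999 for both), Usp47 (0.999) and Mapk8ip3 (0.997) most like Lef1, and Zcchc5 and Supt20 most like Wnt5b (0.993 for both). With 3 groups of 2 libraries such values are common: 611, 206 and 80 genes had r above 0.95 with Nkd1, Lef1 and Wnt5b.

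The other genes of the pathway were taken from 9 lists, some of which share genes. Outside the 10 members, 84 of 110 listed genes were tested. For TGF-alpha against control 17 rose and 33 fell, which is 59.5% of them against 29.9% of all tested genes, with a median log2 of -0.12 against 0.0039 over all tested genes. For TGF-alpha plus gefitinib against TGF-alpha 23 were higher and 20 lower (51.2% against 34.0%, median log2 0.039 against 0.013). For TGF-alpha plus gefitinib against control 1 was higher and 10 lower (13.1% against 9.52%, median log2 -0.080 against 0.0020).

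Among genes that release or disable the ligands, Notum, which encodes the enzyme that removes the lipid of Wnt proteins and is itself a beta-catenin target, rose 3.42-fold with TGF-alpha. It had 9 and 14 counts with TGF-alpha plus gefitinib, 34 and 36 with TGF-alpha, and 8 and 13 in control (log2 1.78 ± 0.41 for TGF-alpha over control, adjusted p = 0.00393). The drop with gefitinib (log2 -1.56 ± 0.40, adjusted p = 0.0077) was lost without TGF-alpha 2 (0.0559), without TGF-alpha plus gefitinib 1 (0.0919) and by DESeq2 (0.0703). Wls, the carrier that brings Wnt proteins to the cell surface, fell by 0.18 on the log2 scale with TGF-alpha (adjusted p = 0.0101) and was 0.31 higher with gefitinib than with TGF-alpha alone (adjusted p = 0.000196). Leaving out TGF-alpha 2 (adjusted p = 0.106), control 1 (0.0567) or control 2 (0.0554) ended the call for TGF-alpha. Of the 4 tested genes of this list 2 rose and 1 fell with TGF-alpha. That is 75.0% of them, against 29.9% of all tested genes.

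Among 15 tested receptors 7 fell and 4 rose with TGF-alpha, and 6 were higher and 5 lower when gefitinib was added. In both comparisons that is 73.3% of them, against 29.9% and 34.0% of all tested genes. Fzd9 had 144 ± 0.824 CPM with TGF-alpha plus gefitinib, 59.8 ± 5.47 with TGF-alpha and 129 ± 1.59 in control, a 2.16-fold fall with TGF-alpha (adjusted p = 7.11e-09). Fzd7, Fzd8 and Fzd2 also fell with TGF-alpha, by 0.68, 0.68 and 0.49 on the log2 scale (adjusted p up to 7.86e-06). Fzd5 and the co-receptor gene Lrp5, named for the gefitinib comparison and given here for TGF-alpha after their values were seen, rose by log2 0.67 and 0.45 (adjusted p = 0.000665 and 2.79e-05). Both were lower with gefitinib than with TGF-alpha alone (log2 -1.06 and -0.55, adjusted p = 1.32e-05 and 3.1e-06). The other co-receptor gene, Lrp6, also given after its values were seen, went the other way with TGF-alpha (log2 -0.40, adjusted p = 2.79e-05). Lrp6 averaged 173 CPM with TGF-alpha plus gefitinib, 158 with TGF-alpha and 208 in control. Its difference between the 2 TGF-alpha groups was not called (log2 0.13, adjusted p = 0.0717).

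R-spondins amplify Wnt signals by way of the Lgr receptors. Of 6 tested genes of that axis 4 fell and 1 rose with TGF-alpha, which is 83.3% of them against 29.9% of all tested genes. When gefitinib was added 3 of the 6 were higher, where 17.0% of all tested genes were called higher. Lgr5, a beta-catenin target in many stem cells, had 50 and 30 counts with TGF-alpha plus gefitinib, 10 and 10 with TGF-alpha, and 60 and 85 in control, and fell 6.92-fold with TGF-alpha (log2 -2.79 ± 0.33, adjusted p = 1.32e-05). Rspo3 had 62.0 ± 4.51, 24.7 ± 1.85 and 65.1 ± 0.756 CPM in the same order of groups, a 2.64-fold fall with TGF-alpha (adjusted p = 7.54e-09). Lgr6 had 18 and 8 counts with TGF-alpha plus gefitinib, 20 and 35 with TGF-alpha, and 4 and 6 in control, and rose by 2.48 on the log2 scale with TGF-alpha (adjusted p = 0.00243), a call that was lost without TGF-alpha 2 (adjusted p = 0.0557). Among 10 tested secreted and membrane-bound antagonists 5 fell and 1 rose with TGF-alpha, and 4 were lower with TGF-alpha plus gefitinib than in control. These are 60.0% and 40.0% of them, against 29.9% and 9.52% of all tested genes. Sfrp2, a secreted decoy for Wnt proteins, had 239 ± 1.89 CPM with TGF-alpha plus gefitinib, 23.8 ± 2.39 with TGF-alpha and 332 ± 14.8 in control, a 13.9-fold fall with TGF-alpha (adjusted p = 5.82e-14). Its relative Frzb, a cartilage antagonist, fell 3.09-fold with TGF-alpha (adjusted p = 2.42e-10). The gene that rose was Kremen1, which encodes a membrane receptor for Dkk proteins (log2 0.34, adjusted p = 0.000712). Another of the 5 that fell was Apcdd1, a membrane-bound inhibitor induced by beta-catenin, which fell by 0.70 on the log2 scale with TGF-alpha (adjusted p = 0.00126). Apcdd1 was also 1 of the 4 lower with TGF-alpha plus gefitinib than in control (log2 -0.46, adjusted p = 0.0477). That call was not made by DESeq2 (adjusted p = 0.210) or with a replicate block (0.0620). With 1 library left out, its log2 fold change ranged from -0.49 to -0.42.

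Of 15 tested genes of the destruction complex and Dishevelled 3 fell and 1 rose with TGF-alpha, which is 26.7% of them against 29.9% of all tested genes. Dvl3, 1 of the Dishevelled genes, fell by 0.49 on the log2 scale (adjusted p = 0.000879). The other calls, lower for Apc and Gsk3b and higher for Dvl2, were lost by DESeq2 (adjusted p = 0.101, 0.171 and 0.219) and without control 1 (0.0802, 0.226 and 0.179). Leaving out TGF-alpha 2 also ended all 3 (0.150, 0.137 and 0.123), leaving out TGF-alpha 1 ended those of Gsk3b (0.108) and Dvl2 (0.140), and leaving out control 2 those of Apc (0.0886) and Dvl2 (0.0975). Ctnnb1, which encodes beta-catenin and is given here for its role although the naming rule did not pick it, had 668 ± 7.17 CPM with TGF-alpha plus gefitinib, 603 ± 12.5 with TGF-alpha and 656 ± 1.34 in control. Its fall with TGF-alpha was 1.09-fold (adjusted p = 0.0413), a call that disappeared on leaving out TGF-alpha 1 (adjusted p = 0.212), TGF-alpha 2 (0.0743), control 1 (0.127) or control 2 (0.146). Counts of mRNA do not show the amount of stable beta-catenin protein.

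Of 14 tested nuclear effectors, Lef1 and Tcf7 included, 7 fell and 2 rose with TGF-alpha. That is 64.3% of them, against 29.9% of all tested genes. The Groucho-family co-repressor gene Tle1 rose 1.64-fold (37.3 ± 3.59 CPM with TGF-alpha plus gefitinib, 46.1 ± 0.780 with TGF-alpha and 28.2 ± 0.425 in control, adjusted p = 2.15e-05 for TGF-alpha over control). Its relative Tle4 fell 3.36-fold to 1.38 ± 0.00799 CPM with TGF-alpha, against 4.71 ± 2.06 CPM in control (adjusted p = 0.00171). Without TGF-alpha plus gefitinib 1, Tle4 was no longer called higher with gefitinib than with TGF-alpha (adjusted p = 0.0501, against 0.00441 with all libraries).

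Among 15 tested beta-catenin targets, the 5 members included, 5 fell and 3 rose with TGF-alpha. That is 53.3% of them, against 29.9% of all tested genes. The rises were Lgr6, Notum and the cyclin D1 gene Ccnd1, which drives entry into the cell cycle and had 172 ± 4.74 CPM with TGF-alpha plus gefitinib, 363 ± 11.2 with TGF-alpha and 186 ± 2.10 in control (log2 0.96 ± 0.05 for TGF-alpha over control, adjusted p = 1.56e-09). The falls were Nkd1, Lgr5, Apcdd1, Bambi and Znrf3, the last 2 named after their values were seen. Target genes of beta-catenin lay on both sides of 0 with TGF-alpha, and the median over the 15 was -0.032 on the log2 scale.

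**Figure D4:**
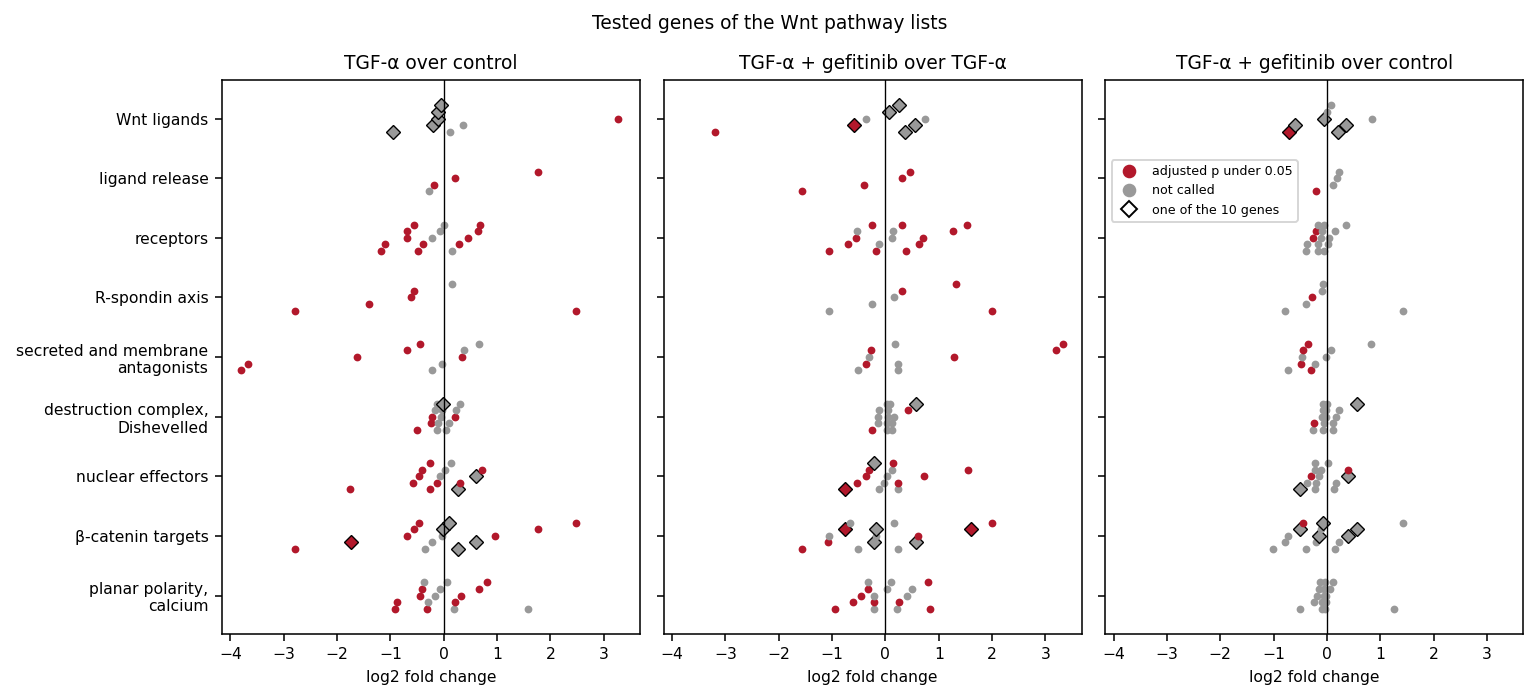
Log2 fold change of every tested gene of the 9 Wnt pathway lists in the 3 comparisons, 1 row a list, spread vertically only to separate points; red marks an adjusted p under 0.05 and a diamond one of the 10 genes. With TGF-alpha, the R-spondin axis, secreted and membrane-bound antagonists and beta-catenin targets have members on both sides of 0, and few genes are red for TGF-alpha plus gefitinib against control.

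Leaving out single libraries changed the third comparison most. Of the 94 listed genes tested, members included, 11 were lower with TGF-alpha plus gefitinib than in control, against 4.26% of all tested genes. Leaving out control 1, control 2 or TGF-alpha plus gefitinib 2 lowered this count. The calls over all tested genes, 1463 in either direction with all libraries, fell in the same fits.

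Markers of other cell types also moved between the groups, and their part in these results was not tested. The 8 fibroblast and perichondrial markers summed to 17160 to 17515 CPM with TGF-alpha plus gefitinib, 15214 to 15260 with TGF-alpha and 22776 to 24587 in control. Col1a1, Col1a2 and Col3a1 made up most of these sums, and single markers did not all follow them: with TGF-alpha 2 of 8 were called higher and 3 lower than in control (median log2 0.037). The shares over all tested genes were 15.9% for rises and 14.0% for falls, against which the next lists can also be read. Pdgfra had 122 and 114 CPM with TGF-alpha plus gefitinib, 329 and 326 with TGF-alpha, and 172 and 176 in control. The 6 smooth muscle and pericyte markers summed to 540 to 582.2 CPM with TGF-alpha plus gefitinib, 287 to 289 with TGF-alpha and 610 to 678 in control. Acta2 made up most of the sum, at 435 and 473 CPM with TGF-alpha plus gefitinib, 155 and 148 with TGF-alpha, and 546 and 487 in control. Of the 5 tested, 1 was called higher and 2 lower with TGF-alpha than in control (median log2 0.24). The 8 osteoblast markers summed to 119 to 121 CPM with TGF-alpha plus gefitinib, 85.1 to 91.98 with TGF-alpha and 179 to 182 in control. Of the 6 tested, 3 were called lower with TGF-alpha than in control. The other 3, Bglap2, Dmp1 and Runx2, were not called. Their means were higher with TGF-alpha (0.834, 0.941 and 29.6 CPM) than in control (0.418, 0.347 and 25.9 CPM). The 5 macrophage markers measured summed to 4.93 to 6.40 CPM with TGF-alpha plus gefitinib, 8.73 to 11.3 with TGF-alpha and 4.29 to 4.46 in control, with Itgam and Ptprc at 0. The 2 tested ones moved in opposite directions with TGF-alpha: Cd68 had 2.19 and 2.96 CPM with TGF-alpha plus gefitinib, 8.22 and 9.74 with TGF-alpha, and 1.17 and 1.91 in control, and Lyz2 had 2.54 and 2.96, 0.288 and 1.24, and 2.65 and 1.97 CPM in the same order of groups. Adipocyte markers summed to at most 5.85 CPM in any library, endothelial markers to at most 1.154 CPM with Cdh5 and Emcn at 0, and epithelial markers to at most 0.582 CPM.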

How the data were processed

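The authors deposited raw counts per gene, 1 column per library and not normalized; GRCm38 is the build given, per the submitters' processing notes, while aligner, counter, annotation and strand setting were not given in the sources used here. The analysis used edgeR 4.0.16 (R 4.3.3): filterByExpr with a minimum count of 10, TMM scaling, and a quasi-likelihood fit of all 6 libraries on group alone (3 residual and 11.2 prior degrees of freedom). P-values were two-sided and adjusted by the Benjamini-Hochberg method over 15362 genes, and a gene was called at 0.05. The SE is the absolute log2 fold change divided by the square root of F. The fit was also run on simulated counts with known changes in genes above a floor of counts. The outcome is not given here and is no support for genes with few counts, such as Nkd2. CPM per kb used the union of GENCODE M21 exons, and log2 CPM for correlations a prior count of 2.

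The 10 genes, the lists and the tests were chosen with earlier results of these data known. List genes named are the 4 (or fewer) of lowest p among those called, per list and comparison, or the 2 of highest CPM; exceptions are marked, and only some are printed. Alternatives were other scalings, DESeq2 1.42.0, other filters, 2-group fits, a replicate block and leaving out each library. Deviations of same-numbered libraries had correlations of -0.023 to 0.011 across genes. Counting noise in genes with few counts can weaken such correlations, so they do not show that the libraries were unpaired. Replicate numbers were not treated as pairs in the main fit.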

Additional observations from a re-analysis of the deposited data

How the results depend on the processing

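Each result was recomputed under up to 13 alternatives, 6 of them leaving out 1 library, where a group with a single library is assumed to vary like the others. Nkd1 kept its direction and its calls in all of them. By DESeq2 3472 genes were called for TGF-alpha plus gefitinib against TGF-alpha (5217 by edgeR) and 912 against control (1463), the listed Wnt genes called lower were 14 (22) and 7 (11), and Wnt5b was not called against TGF-alpha (log2 -0.60). DESeq2 gave no adjusted p against control for 8 of the 10 genes. Without a filter on low counts Wnt4 was called lower with TGF-alpha (log2 -0.97), and with a minimum count of 30, under which Wnt4 and Nkd2 were not tested, 2 listed genes in place of 1 were higher with TGF-alpha plus gefitinib than in control. The replicate block, with which Wnt5b had log2 -0.59 against TGF-alpha (adjusted p = 0.0331), changed no call among the 10 genes.

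With 1 library left out, calls for TGF-alpha plus gefitinib against control ranged from 649 to 1291, and listed genes from 0 to 1 higher and 3 to 11 lower. Wnt5b ranged from -0.61 to -0.58 against TGF-alpha and from -0.72 to -0.69 against control, without a call where a library of either group compared was missing. Some uncalled differences changed sign, and these were the ones of Nkd2 and Wnt11 in all 3 comparisons, of Axin2 for TGF-alpha over control and of Tcf7 for gefitinib against TGF-alpha. For TGF-alpha over control it ranged from -0.21 to 0.56 for Nkd2, -0.59 to 0.41 for Wnt11 and -0.28 to 0.20 for Axin2. For gefitinib against TGF-alpha it ranged from -0.41 to 0.011 for Nkd2, -0.040 to 0.94 for Wnt11 and -0.44 to 0.060 for Tcf7. Against control it ranged from -0.37 to 0.39 for Nkd2 and -0.23 to 0.96 for Wnt11. Wnt10a, outside the 10 genes, ranged there from -0.12 to 0.26. Counts of 10 to 33 a library for Nkd2 and Axin2 limit what can be detected in them.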

Other observations

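Genes of the planar cell polarity and calcium branches, the routes used by Wnt5a and Wnt11, moved in both directions. Of 16 tested genes 4 rose and 5 fell with TGF-alpha, which is 56.3% of them against 29.9% of all tested genes. When gefitinib was added 3 were higher and 5 lower, which is 8 of 16 against 34.0% of all tested genes. No test compared the list with other genes. The formin-family gene Daam2, which links Dishevelled to the cytoskeleton, had 119 CPM with TGF-alpha plus gefitinib, 66.7 with TGF-alpha and 127 in control, and fell 1.90-fold with TGF-alpha (adjusted p = 3.32e-08). Prickle2, a core polarity gene, had 22.1, 42.6 and 24.1 CPM in the same order and rose 1.76-fold with TGF-alpha (adjusted p = 2.13e-05). Camk2d, a calcium-dependent kinase gene, rose 1.59-fold (adjusted p = 1.53e-06). Daam2 and Camk2d were 1.79-fold higher and 1.53-fold lower with TGF-alpha plus gefitinib than with TGF-alpha alone (adjusted p = 9.05e-08 and 3.24e-06).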
